A study of Mus musculus with 19 samples.

Results

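The genes P2ry2, Vldlr, Bambi, Aim2, Ccm2l, Prx, Chad and Prrt1 were described across all 19 bone marrow libraries, as 8 of the 54352 genes listed and of the 15066 genes with enough counts to test. They were chosen from the measurements themselves: in a fit of all libraries they were the 8 genes whose response to knockdown of the long noncoding RNA Spehd (lnc12928), averaged over 2 shRNAs, differed between common myeloid progenitors (CMPs) and LSK cells at an adjusted p below 0.05 (quasi-likelihood test of edgeR, Benjamini-Hochberg adjusted over all genes tested). Their values in CMPs, in the LSK cells against Renilla and between the control cell types are therefore a description, and only the comparison of the 2 Spehd shRNAs inside LSK cells is tested for them.

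The libraries came from mice transplanted with C57BL6 hematopoietic stem cells that carried a doxycycline-inducible shRNA vector with a zsGreen reporter, left for 10 weeks to reconstitute and then given doxycycline in their food for 6 days. The recipients were cKit(w41) mice carrying CD45.1, 9 to 12 weeks old, conditioned by sublethal irradiation, and zsGreen marked the shRNA-bearing cells that were sorted. LSK cells (lineage-negative, Sca1-positive, cKit-positive, labelled KLS) hold the stem cells and multipotent progenitors, and CMPs are the myeloid progenitors downstream of them. The control shRNA targeted Renilla luciferase, which mice lack, and the Spehd shRNAs are called sh10 and sh20 here. CMP groups held 4 Renilla, 3 sh10 and 2 sh20 libraries, and LSK groups held 4 Renilla, 3 sh10 and 3 sh20 libraries. All groups shared the transplantation, the vector and the doxycycline. The labels do not say which libraries came from separate animals, so the p-values measure the spread between these libraries.

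Libraries held 3647320 to 5965160 counted reads. Both CMP sh20 libraries were the deepest CMP libraries (5680970 and 5965160 reads) and detected the fewest genes of the CMP libraries (17174 and 18066, against 18552 to 20275 in the other CMP libraries), and LSK sh20 libraries also detected fewer genes (17587 to 17817) than the other LSK libraries (19026 to 20678). Spehd is not listed under that name in the count files, so its own level is not reported here. Against Renilla LSK, Renilla CMPs had 11 of 15 erythroid and 9 of 11 megakaryocyte markers higher and 10 of 12 granulocyte and monocyte markers lower, past the threshold, while 7 of 13 stem cell markers were lower (edgeR, 19.8% of all genes tested were called in either direction). Lower too were 8 of 10 mature neutrophil, 5 of 8 macrophage and 8 of 11 mast cell and basophil markers, with 1 of the last higher. Mature neutrophil sums ran from 8.24 to 352 CPM over the Renilla LSK libraries.

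The 8 genes belong to no single pathway. P2ry2 is a receptor for extracellular ATP and UTP that signals through Gq proteins, Vldlr is a lipoprotein and reelin receptor of the LDL receptor family, and Bambi is a membrane pseudoreceptor that dampens BMP and TGF-beta signals. Aim2 senses cytosolic DNA and builds an inflammasome, Ccm2l is a paralogue of the cerebral cavernous malformation scaffold Ccm2, and Prx (periaxin) is a scaffold of the Schwann cell membrane. Chad (chondroadherin) is a leucine-rich matrix protein of cartilage, and Prrt1 is a small membrane protein found with AMPA-type glutamate receptors in the brain.

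The antisense strands that load into the silencing complex are shown because 7 of the 8 genes, all but Ccm2l, read lower with one than with the other in CMPs. Each is 22 bases, read from the study's oligonucleotide list and written 5′ to 3′, with the seed (bases 2 to 8) in capitals.
sh10 guide: tACAAAGTcagcttttcctctc
sh20 guide: tATGCTATgacaacccagggca
None of the 141767 GENCODE vM21 transcripts held the full complement of either guide. A single annotated 3′ UTR was searched per gene, that of the transcript with the longest coding sequence. A 7-base complement of the sh20 seed, ATAGCAT, stood there in 1 of the 8 genes, Aim2, which had 2 copies in 1022 bases. It stood there in 8.01% of the 12677 genes tested that have such a UTR. That of the sh10 seed, ACTTTGT, stood in 2 of the 8, Bambi and Vldlr, whose UTRs measured 4004 and 5091 bases, against 17.5% of those 12677 genes. P2ry2, Ccm2l, Prx, Chad and Prrt1 held neither heptamer in the UTR searched. A match of this kind describes the letters only, and whether any of these transcripts is bound was not tested.

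The genes lie on 7 chromosomes (GENCODE vM21, GRCm38, the build the files use), all as protein-coding genes. P2ry2 spans chr7:100996568-101012866 on the minus strand. On the plus strand, Prx spans chr7:27499324-27520214, Vldlr chr19:27216484-27254231, Bambi chr18:3507923-3516404, Aim2 chr1:173350879-173466040, Ccm2l chr2:153065955-153081735, Chad chr11:94565047-94569127 and Prrt1 chr17:34629533-34633126. Prx shares 300 exonic bases with an antisense gene, Gm15541, which did not pass the count filter, and since the library kit does not mark strand, reads there cannot be assigned to one of the pair. Chad lies inside the span of Acsf2 on the other strand but shares no exonic base with it.

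In CMPs, every one of these genes read between 0 and 1.86 CPM (read counts relative to library size after TMM scaling, as edgeR's cpm gives them) in both sh20 libraries and between 2.44 and 34.3 CPM in the 4 Renilla libraries. That every CMP sh20 library lay below every CMP Renilla library held for 8 of 8 members and for 17.1% of all genes tested, and since the rule used these libraries nothing is read from that count. A mean at or under an eighth of the Renilla mean was met by all 8 members with sh20, by 5.29% of all genes tested and by 3.72% of the 3333 genes whose Renilla CMP level lay in the members' range, 4.22 to 24.0 CPM. With sh10 in CMPs 1 member met it, Ccm2l, beside 1.43% of all genes and 1.53% of those at the members' level. With sh20 in LSK cells 0 members did, beside 2.03% and 0.75%. With Chad placed at its lower bound the members' median log2 fold change with sh20 in CMPs was -4.43, beside -0.02 over all genes tested.

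**Figure D1:**
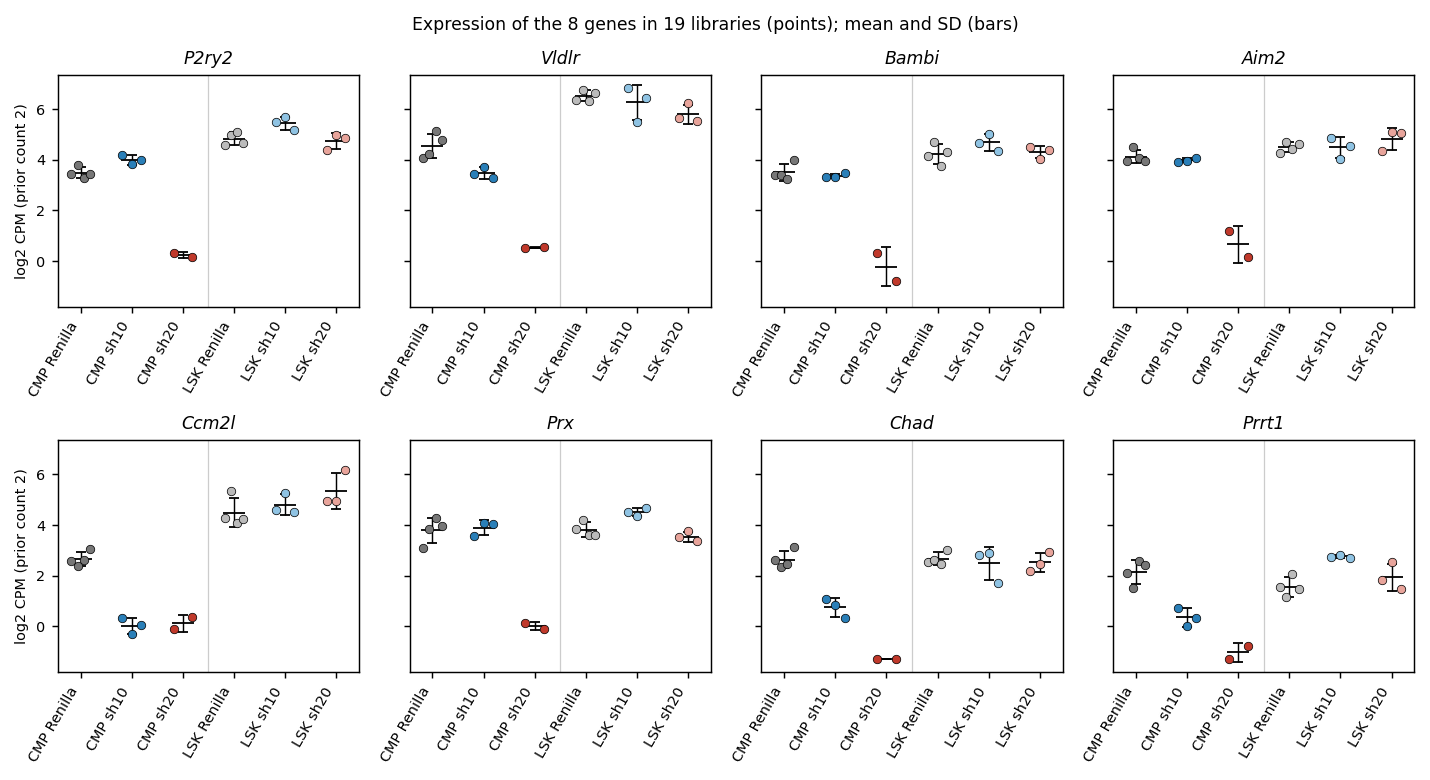
Level of each gene in every library, on the y axis as log2 CPM with a prior count of 2, with the 6 groups on the x axis, points for libraries and bars for the mean and SD. The 2 CMP sh20 libraries lie below all other groups for every gene except Ccm2l, where the 3 CMP sh10 libraries lie as low.

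The name under which the genes were grouped, a loss particular to sh20 in CMPs, fits only part of them. P2ry2, Bambi, Aim2 and Prx were low with sh20 alone. Vldlr, Chad and Prrt1 were lower with both shRNAs and lowest with sh20, and Ccm2l was as low with sh10 as with sh20. Every sh20 library lay below every sh10 library in CMPs for 7 of the 8, all but Ccm2l, and for 24% of all genes tested. Every sh10 library lay below every Renilla library for Ccm2l, Chad, Prrt1 and Vldlr, and for 12.2% of all genes. All 8 transcripts were read in every LSK library: the lowest of the 10 LSK libraries for any member was 1.81 CPM, for Prrt1 with Renilla.

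**Figure D2:**
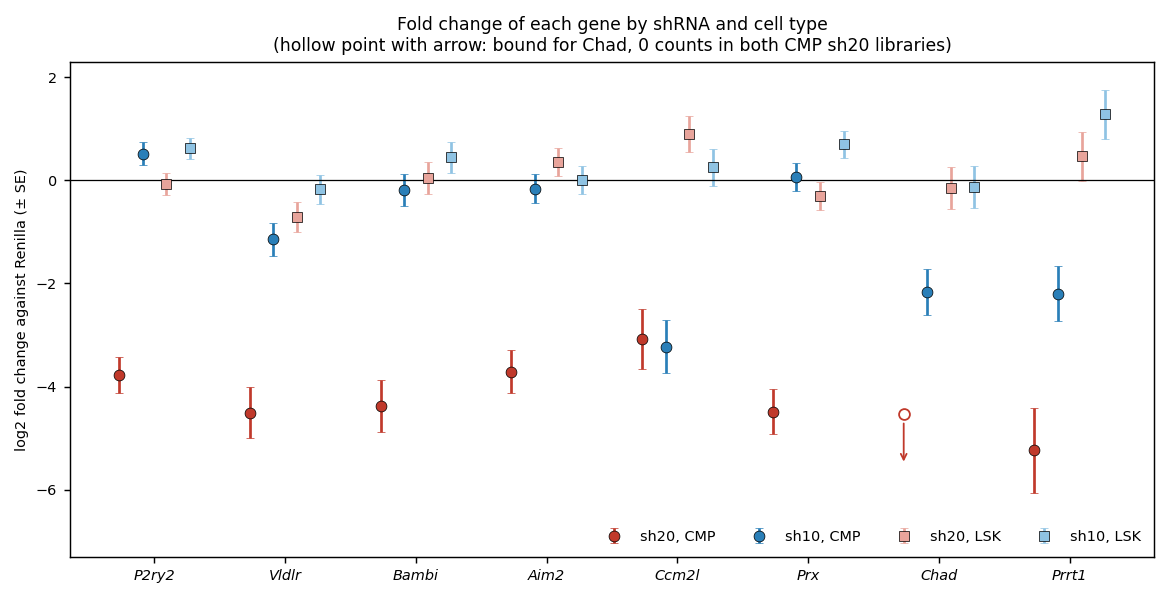
Log2 fold change against Renilla (y axis, ± SE from the fit of all libraries) for each gene (x axis), with circles for CMPs, squares for LSK cells, red for sh20 and blue for sh10. All sh20 values in CMPs lie at or below -3.08, with Chad drawn at its bound, and the LSK values lie between -0.70 and 1.28.

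Among the surface receptors, P2ry2 read 10.5, 13.4, 9.28 and 10.6 CPM in Renilla CMPs, replicates A to D. It read 17.9, 13.7 and 15.5 CPM with sh10 and 0.847 and 0.702 CPM (5 and 4 reads) with sh20. The sh10 libraries thus stood above all Renilla libraries, where 11.6% of all genes stood too, and the sh20 libraries below both. Its log2 fold change was -3.77 ± 0.35 (SE) with sh20, 13.7-fold lower, and 0.52 ± 0.22 with sh10. LSK cells carried 23.5, 31.3, 33.8 and 24.6 CPM with Renilla. They carried 44.2, 50.9 and 35.4 CPM with sh10 and 20.7, 31.0 and 28.7 CPM with sh20. P2ry2 thus also sat above Renilla with sh10 in LSK cells, as did 3.05% of all genes, while with sh20 it overlapped Renilla there.

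Vldlr, the most abundant of the receptors in LSK cells per kilobase of exon, read 16.3, 18.5, 34.3 and 26.8 CPM in Renilla CMPs. It read 10.3, 12.9 and 9.40 CPM with sh10 and 1.02 and 1.05 CPM (6 reads each) with sh20, so that the 3 groups did not overlap. The log2 fold changes were -4.50 ± 0.50 with sh20 and -1.14 ± 0.32 with sh10. In LSK cells Vldlr read 82.2, 108, 80.2 and 99.5 CPM with Renilla. It read 114, 45 and 86.3 CPM with sh10 and 49.9, 74.8 and 45.7 CPM with sh20. It was the only member whose LSK sh20 libraries all lay below LSK Renilla, as did 5.98% of all genes tested, at a log2 fold change of -0.70 ± 0.29.

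Bambi read 10.0, 10.2, 9.05 and 15.7 CPM in Renilla CMPs and 9.47, 9.65 and 10.7 CPM with sh10, which overlapped. With sh20 it read 0.847 and 0.176 CPM, from 5 reads and 1 read. The log2 fold change was -4.38 ± 0.50 with sh20, or -5.85 and -3.74 without sh20 replicates B and C, and -0.18 ± 0.31 with sh10. In LSK cells the values were 17.1, 25.9, 13.1 and 19.4 CPM with Renilla, 25.0, 32.3 and 20.1 CPM with sh10, and 22.1, 15.9 and 20.6 CPM with sh20. All 3 LSK groups overlapped.

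Among the sensor and the scaffolds, Aim2 read 15.3, 22.4, 16.2 and 15 CPM in Renilla CMPs and 14.5, 15.3 and 16.3 CPM with sh10. With sh20 it read 1.86 and 0.702 CPM (11 and 4 reads), a log2 fold change of -3.71 ± 0.42, or -4.61 and -3.24 without sh20 replicates B and C, beside -0.17 ± 0.28 with sh10. The 2 sh20 libraries differed from each other more for Aim2 and Bambi than for P2ry2, Vldlr or Prx. LSK cells carried 19, 25.9, 21.3 and 24.2 CPM with Renilla, 28.9, 15.9 and 23.1 CPM with sh10, and 19.7, 33.8 and 33.1 CPM with sh20. These groups overlapped.

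Ccm2l departed from the other genes. It read 5.53, 4.87, 5.80 and 7.85 CPM in Renilla CMPs, and it was near the detection limit with both Spehd shRNAs: 0.841, 0.402 and 0.627 CPM with sh10 and 0.508 and 0.878 CPM with sh20, from 2 to 5 reads a library. The log2 fold changes were -3.22 ± 0.52 with sh10 and -3.08 ± 0.58 with sh20, and sh20 against sh10 in CMPs was 0.15 ± 0.71. In LSK cells Ccm2l read 19.2, 40.0, 16.6 and 18.6 CPM with Renilla, 23.8, 38.3 and 22.6 CPM with sh10, and 30.2, 30.7 and 70.9 CPM with sh20. It was thus lower in Renilla CMPs than in Renilla LSK cells without overlap (log2 fold change -1.97 ± 0.36, a pattern of 14.7% of all genes), and no LSK library came near the CMP knockdown values. Vldlr (-1.94 ± 0.28) and P2ry2 (-1.37 ± 0.21) were also lower in Renilla CMPs without overlap.

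Prx read 8.16, 14.1, 18.8 and 15.2 CPM in Renilla CMPs and 11.4, 16.5 and 16.3 CPM with sh10. With sh20 it read 0.678 and 0.527 CPM (4 and 3 reads), and the log2 fold changes were -4.49 ± 0.44 with sh20 and 0.06 ± 0.27 with sh10. In LSK cells it read 14.2, 18.1, 11.7 and 11.9 CPM with Renilla, 22.4, 20.3 and 25.5 CPM with sh10, and 11, 13.1 and 9.92 CPM with sh20. The LSK sh10 libraries stood above both other LSK groups, and Renilla CMPs and Renilla LSK cells differed by less than their SD (14.1 ± 4.42 and 14 ± 2.96 CPM, n = 4 each).

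Of the matrix and membrane proteins, Chad read 5.79, 4.63, 5.10 and 8.34 CPM in Renilla CMPs, 1.68, 1.41 and 0.835 CPM with sh10, and had 0 reads in both sh20 libraries, so the groups did not overlap. A count of 0 allows up to 3 reads over the 2 libraries, 0.259 CPM, which puts Chad at least 23.0-fold lower with sh20 than with Renilla (counting error of the sh20 reads only). With the counting error of the 97 Renilla reads included, the exact 95% upper limit of the ratio was 5.44%. With sh10 the log2 fold change was -2.17 ± 0.45. In LSK cells Chad read 5.49, 5.83, 5.18 and 7.77 CPM with Renilla, 6.70, 7.08 and 2.89 CPM with sh10, and 4.14, 5.16 and 7.16 CPM with sh20, all overlapping.

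Prrt1 read 3.95, 2.44, 5.57 and 4.91 CPM in Renilla CMPs, 1.26, 0.603 and 0.835 CPM with sh10, and 0 and 0.176 CPM with sh20. The single sh20 read put it at 2.04% of the Renilla level, with an exact 95% interval from counting error of 0.0508% to 11.7%. The fitted log2 fold change was -5.24 ± 0.83 with sh20 and -4.43 without sh20 replicate B, while without replicate C no sh20 read is left. With sh10 the log2 fold change was -2.20 ± 0.54. In LSK cells Prrt1 read 2.54, 1.81, 3.82 and 2.38 CPM with Renilla, 6.34, 6.70 and 6.14 CPM with sh10, and 3.15, 5.38 and 2.39 CPM with sh20. The sh10 libraries stood above all other LSK libraries, opposite to their place in CMPs, while Renilla CMPs (4.22 ± 1.36 CPM) overlapped Renilla LSK cells (2.63 ± 0.849 CPM), with a log2 fold change of 0.68 ± 0.45. The other 7 members read between -1.97 and 0.01 in that comparison of control cells.

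Ordered by group means of log2 CPM, CMP sh20 was the lowest group for 7 of the 8 genes, and the step above it exceeded the sum of the neighbouring SDs for each of those 7. For Ccm2l, CMP sh20 (0.13) and CMP sh10 (0.03) did not differ beyond that spread. Above these lowest groups, the order for Aim2 and Bambi held no step beyond the spread. For P2ry2, LSK sh10 stood apart at the top and LSK Renilla and LSK sh20 did not differ beyond the spread. For Vldlr, LSK sh10 overlapped both LSK Renilla and LSK sh20, and Renilla CMPs and then CMP sh10 lay below these, each by more than the spread. Per kilobase of exon, Renilla CMPs carried most Aim2 (4.92 CPM per kb) and least Prrt1 (1.83), and Renilla LSK cells most Ccm2l (9.81) and Vldlr (9.19). The Ccm2l value leans on LSK Renilla replicate B, at 40.0 CPM against 19.2 CPM in the nearest library, so no order is read between these 2.

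The contrast of knockdown effects that chose the genes gave log2 differences, CMP minus LSK, from -1.90 ± 0.29 for P2ry2 to -4.88 ± 0.65 for Chad, a fitted value that has no lower limit because of its 0 reads. It called 8 of 15066 genes (0.0531%), all with the lower value in CMPs. DESeq2 called 73 genes lower and 25 higher in the same contrast, the 8 among them. None of the 8 calls held without replicate A of the Renilla LSK cells, and only that of Chad held without replicate D. With the replicate block 0 of the 8 were called, and with both shRNAs pooled 1 was, Ccm2l. Split by shRNA, the difference for sh20 alone ran from -3.69 for P2ry2 to -5.71 for Prrt1, with Chad again unlimited, and that for sh10 alone from -0.10 for P2ry2 to -3.48 for Prrt1 and Ccm2l. The members just inside the threshold were Aim2 and Vldlr at an adjusted p of 0.0348. Just outside it, at 0.0530, stood Trim46, the granulocyte colony-stimulating factor receptor Csf3r and, tied with them, Cdc14b. Csf3r read 20.5 CPM with sh20 in CMPs and 62.5 CPM with Renilla, a log2 fold change of -1.61 ± 0.14 that is given as a description, since the same libraries placed it near the threshold.

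**Figure D3:**
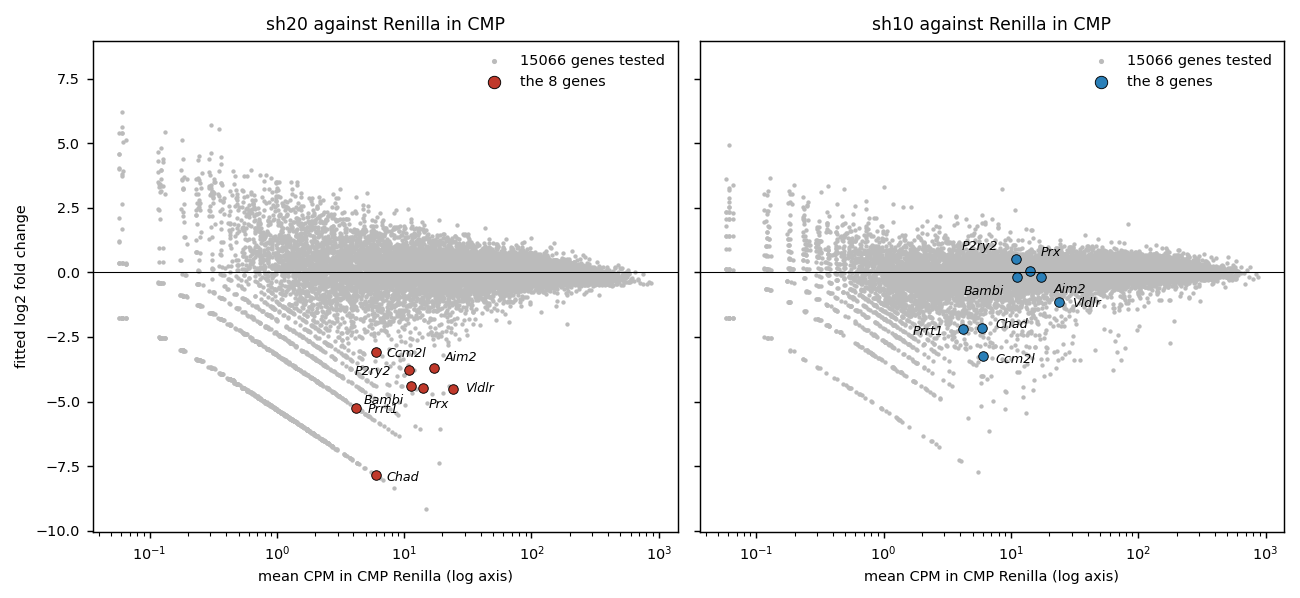
Fitted log2 fold change in CMPs (y axis) against the mean CPM in Renilla CMPs (x axis, log scale), with grey points for the 15066 genes tested and coloured points for the 8 genes, for sh20 on the left and sh10 on the right. With sh20 all 8 lie under the main cloud, and Chad lies on the line that genes with 0 sh20 reads form. With sh10 P2ry2, Bambi, Aim2 and Prx lie inside the cloud.

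Within LSK cells, sh20 against sh10 is the comparison the rule averaged over, and it was tested. None of the 8 genes passed (edgeR, adjusted p from 0.204 to 1), where 28 of 15066 genes (0.186%) did and 1653 had an unadjusted p under 0.05. Prx and P2ry2 were among those 1653 genes and fell short only after adjustment over all genes tested. The other members were not among them. DESeq2 also called none of the 8. The log2 fold change was -0.999 ± 0.29 for Prx (adjusted p = 0.204, DESeq2 adjusted p = 0.0543), -0.81 ± 0.51 for Prrt1 (adjusted p = 0.587, DESeq2 0.502) and -0.70 ± 0.23 for P2ry2 (adjusted p = 0.245, DESeq2 0.101). For Prx, P2ry2 and Prrt1 every sh20 library lay below every sh10 library, as for 6.33% of all genes. The other 5 ranged from -0.53 for Vldlr to 0.64 for Ccm2l. With 1 library left out Vldlr read from -0.80 to -0.21 and Ccm2l from 0.09 to 0.95. The same pair in CMPs, given as a description, read -4.55 ± 0.44 for Prx and -4.29 ± 0.36 for P2ry2. Some marker sums also parted the LSK groups. Those of mature neutrophils were 7.10 to 24.7 CPM with sh20 and 71.6 to 329 CPM with sh10, and lymphoid sums were lower with sh20 too. Stem cell sums were 1418 to 1833 CPM with sh20 and 1025 to 1314 CPM with sh10, and macrophage sums were higher with sh20 too. Erythroid, eosinophil, and granulocyte and monocyte sums overlapped, and no marker was called.

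Beside the sh20 values in CMPs, other transcripts moved. Cd34, a surface antigen used in the CMP sort gate, read 312.5, 348.5, 298.8 and 407.9 CPM with Renilla and 320.6, 292.4 and 375.6 CPM with sh10, but 187.2 and 187.0 CPM with sh20. Cd34 was lower with sh20 (log2 fold change -0.87 ± 0.12, edgeR adjusted p = 0.0013) and read -0.05 with sh10. Without any 1 library its call held, and with library totals as a covariate its adjusted p was 0.239. The gate's 5 transcripts together summed to 675.4 to 855.5 CPM with sh20 and to 1005 to 1182 CPM with Renilla. Most of that sum is Kit and Cd34. The Fc receptor Fcgr3 read 23.8 ± 8.79 CPM with sh20 and 11.9 ± 4.24 CPM with Renilla, and Ly6a 5.70 ± 5.83 and 5.17 ± 2.03 CPM, both overlapping. Of 8 macrophage markers 2 rose with sh20, C1qa and Spic, where 0.883% of all genes were called higher, and the 8 had a median log2 fold change of 1.46 and a range from -0.37 to 1.80. The list's summed level was 239.2 to 312.3 CPM with sh20, which overlapped the 40.7 to 244.8 CPM with Renilla, with no marker at 0. Sums of mature neutrophil markers, 26.9 to 32.4 CPM with sh20 and 11.3 to 22.1 CPM with Renilla, and of stem cell markers, 950.7 to 1003 CPM and 754.2 to 948.1 CPM, did not overlap, but none of their 10 and 13 genes was called with sh20. Mmp9 made up most of the neutrophil sum (21.8 against 12.4 CPM) and Mycn added most to the stem cell sum (297 against 249 CPM), while single genes read both ways, with log2 fold changes from -1.32 to 3.59 and from -2.27 to 1.77. Sums of the remaining cell type lists overlapped, among them erythroid markers at 2073 to 2176 CPM with sh20 and 1966 to 2407 CPM with Renilla. In these lists 1 of 15 erythroid markers was called lower with sh20. Of 12 granulocyte and monocyte markers 1 was lower and 1 higher, as of 13 lymphoid markers, where 3.16% of all genes were lower and 0.883% higher. With sh10, stem cell sums were 472.2 to 659.0 CPM and lymphoid sums 396.9 to 563.5 CPM, against 754.2 to 948.1 CPM and 588.5 to 731.2 CPM with Renilla. The other way, those of granulocytes and monocytes were 1125 to 1403 CPM against 590.4 to 869.8 CPM and those of mast cells and basophils 273.2 to 317.9 CPM against 183.8 to 239.0 CPM, none of them overlapping. Few single genes were called with sh10: 2 of 13 stem cell and 3 of 13 lymphoid markers lower, where 0.71% of all genes were. Higher were 2 of 12 granulocyte and monocyte and 1 of 11 mast cell and basophil markers, where 0.252% of all genes were. The mast cell and basophil markers read from -1.77 to 2.05 on the log2 scale. In these bulk samples fewer cells of a type and less RNA per cell cannot be told apart, and the part of Cd34, of these markers and of the lower gene detection in the sh20 values was not tested.

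**Figure D4:**
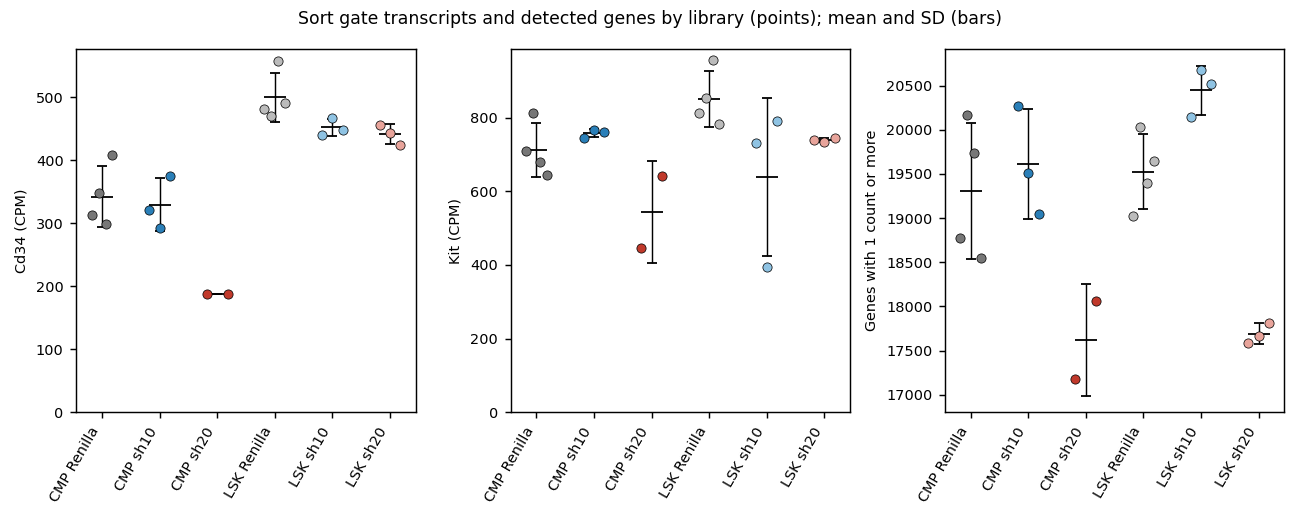
CPM of Cd34 and Kit and the number of genes with at least 1 count (y axes) in each library of the 6 groups (x axes), with bars for the mean and SD. The CMP sh20 libraries are lowest for Cd34, at 187.2 and 187.0 CPM, and the sh20 libraries of both cell types detect the fewest genes of their cell type.

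The genes most alike in profile to the 8, by Pearson's r over the 19 libraries with the mean z-score of the members, were Rhbdf1 (0.939), Hnf4a (0.938), Smpd5 (0.936), Ccdc149 (0.936) and Smad6 (0.935). These are descriptions over libraries that share groups and depth, and without the CMP sh20 libraries the values were 0.795 to 0.870 over 17 libraries. Rhbdf1, an inactive rhomboid protein, read 9.34 ± 2.72 CPM in Renilla CMPs and 0.690 ± 0.0174 CPM (SD, n = 2) with sh20. The nuclear receptor Hnf4a read 10.1 ± 2.96 and 0.254 ± 0.359 CPM in the same groups, and Ccdc149 9.01 ± 4.50 and 0.169 ± 0.240 CPM. Within groups, the members' deviations from library to library correlated from -0.44 to 0.62 over 28 pairs of genes, with a median of 0.05. Members with r nearest the mean profile were Bambi (0.966) and Vldlr (0.958), and Ccm2l was farthest (0.810).

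Known partners of the 8 proteins were listed by pathway, 159 genes in 8 lists, of which 118 passed the count filter. With sh20 in CMPs 6 were called lower and 1 higher (5.93%, against 4.04% of all genes, or 3.16% lower and 0.883% higher, edgeR). With sh10 2 were lower and 1 higher (2.54%, against 0.962%, or 0.71% lower and 0.252% higher). In the BMP and TGF-beta list of Bambi, 2 of 26 fell with sh20 and 1 with sh10, with list medians of -0.30 and 0.05 beside -0.02 and -0.01 over all genes. Smad6, an inhibitory Smad, fell from 5.13 ± 2.92 to 0.257 ± 0.115 CPM with sh20 (log2 fold change -4.19 ± 0.66, adjusted p = 0.0035) and read -0.79 ± 0.43 with sh10. Its sh20 effect differed between CMPs and LSK cells by -3.88 ± 0.76 on the log2 scale (adjusted p = 0.029), a difference called for 0.584% of all genes. Smad3, a TGF-beta signal transducer, fell with sh20 by 0.94 on the log2 scale (adjusted p = 0.037). Id2, a target of BMP signals, fell with sh10 from 80.2 ± 20.2 to 35.0 ± 5.64 CPM (adjusted p = 0.028) and read -0.14 with sh20. Leaving out 1 library ended the call of Smad6 in 0 of 19 fits, of Smad3 in 11 and of Id2 in 6.

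In the list of the CCM complex and its MEKK3-KLF axis, 1 of 16 fell with each shRNA. Klf2, the transcription factor at the end of that axis, fell with sh10 from 23.5 ± 5.39 to 5.73 ± 1.06 CPM (adjusted p = 0.032) and stood at 25.8 ± 11.1 CPM with sh20. The kinase Stk24, a partner of Pdcd10, fell with sh20 by 0.81 on the log2 scale (adjusted p = 0.040), and it was also the only partner called between sh20 and sh10 in LSK cells (log2 fold change -1.02 ± 0.20, adjusted p = 0.044). Of 14 tested members of the LDL receptor family and reelin list, 2 fell and 1 rose with sh20, and 1 rose with sh10. Apoe, a ligand of these receptors, fell from 243 ± 4.56 to 167 ± 6.28 CPM with sh20 (adjusted p = 0.021). Sorl1, a sorting receptor, rose with sh20 from 11.3 ± 3.76 to 30.6 ± 3.01 CPM (adjusted p = 0.023), and Lrp8, the other reelin receptor, rose with sh10 by 0.83 on the log2 scale (adjusted p = 0.035). The remaining call, the chaperone Lrpap1, fell by 0.38 on that scale with sh20 (adjusted p = 0.044) and is named after its values were seen. Of the 19 fits without 1 library the calls were lost in 8 for Apoe, whose log2 fold change of -0.54 was also -0.05 with library totals as a covariate (adjusted p = 0.92), 3 for Sorl1, 6 for Lrp8, 6 for Klf2, 14 for Stk24 with sh20 in CMPs, 16 for Stk24 in LSK cells and 15 for Lrpap1.

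**Figure D5:**
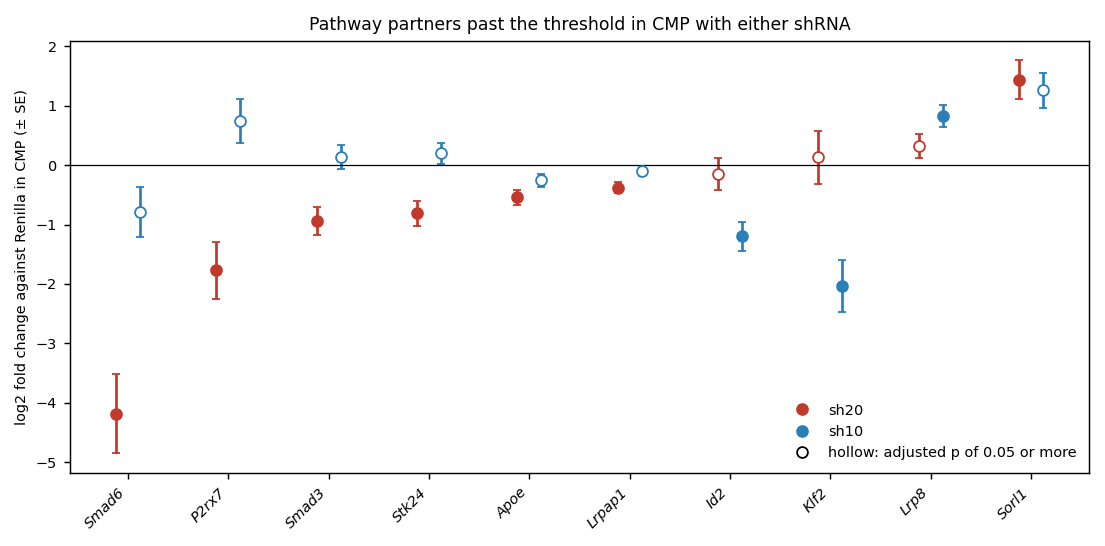
Log2 fold change in CMPs against Renilla (y axis, ± SE) of the 10 pathway partners called with either shRNA (x axis), with red for sh20, blue for sh10 and hollow points where the adjusted p was 0.05 or more. Smad6 has the lowest value, -4.19 with sh20, and no partner is filled with both shRNAs.

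In the purinergic list of P2ry2, 1 of 17 fell with sh20, the ATP-gated channel P2rx7, from 8.36 ± 2.15 to 2.43 ± 1.52 CPM (adjusted p = 0.048), a call lost in 16 of the 19 fits without 1 library, and it read 0.75 ± 0.37 with sh10. No gene was called with either shRNA in CMPs among 18 inflammasome and DNA sensing partners of Aim2, 5 matrix partners of Chad, 9 of Prrt1 and 13 of Prx. Between the control cell types 23 partners were lower and 9 higher in Renilla CMPs than in Renilla LSK cells (27.1%, against 19.8% of all genes, or 8.73% lower and 11% higher). The Aim2 list had 6 lower and 1 higher of 18, among them the DNA pathway adaptor Tmem173 (69.5 ± 16.5 against 142 ± 6.93 CPM, adjusted p = 0.0018), Ifi203 (37.9 ± 5.22 against 89.9 ± 9.78 CPM, adjusted p = 0.0022) and the cytokine Il18 (5.36 ± 3.93 against 22.5 ± 2.19 CPM, adjusted p = 0.0068). The purinergic list had 6 lower and 1 higher of 17, with the UDP-sugar receptor P2ry14 (46.1 ± 5.14 against 114 ± 15.7 CPM, adjusted p = 9.1e-05) and the ATP-degrading enzyme Entpd1 (6.09 ± 1.69 against 38.6 ± 11.2 CPM, adjusted p = 0.00041) lower, and the ADP receptor P2ry1 higher (78.5 ± 14.3 against 26.7 ± 4.84 CPM, adjusted p = 0.0059). These 6 genes have the smallest adjusted p of their lists and were picked after their values were seen. P2ry2 itself read 10.9 ± 1.74 and 28.3 ± 5.06 CPM in the same groups, and Aim2 17.2 ± 3.50 and 22.6 ± 3.06 CPM.

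The nearest tested gene on either side of each member was looked at as well, 16 genes at 1023 to 681916 bases. None was called with sh20 or with sh10 in CMPs (edgeR; 4.04% and 0.962% of all genes were), and their sh20 log2 fold changes had a median of 0.02 and ran from -5.86 to 2.96. Ppt2, which lies 1023 bases from Prrt1, read -0.35 ± 0.21 with sh20. Hipk4, 3053 bases from Prx, had a fitted value of -5.86 ± 2.19 at 1.47 CPM in Renilla CMPs (adjusted p = 0.139), and Ifi206, 2445 bases from Aim2, read -4.78 ± 1.83 at 3.03 CPM (adjusted p = 0.144). P2ry6, a UDP receptor that neighbours P2ry2, read 2.96 ± 1.14 at 1.02 CPM (adjusted p = 0.146). Acsf2, whose span holds Chad, read -0.62 ± 0.42.

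Promoters, taken as 250 bases before to 50 after a RefSeq start (GRCm38.p6), were listed for 6 of the 8 genes in 8 windows, not for Bambi or Ccm2l. They shared little: their CpG dinucleotides numbered 3 to 30, with a median of 12, beside a median of 19 over the 13773 windows of tested genes. On both strands, the GATA factor motif AGATAA stood in 0 of the 8 windows and in 6.99% of the windows of tested genes. The RUNX motif TGTGGT stood in 0, against 13.4%. The AP-1 motif TGANTCA also stood in 0, against 5.29%. The ETS motif GGAAGT stood in 1, that of Aim2, against 28.1%, and the SP and KLF motif GGGCGG in 5 windows of 4 genes, against 59.5%. The windows of Aim2, P2ry2 and Prx are shown because these 3 were, with Bambi, the genes low with sh20 alone in CMPs, with capitals for GGAAGT and GGGCGG on either strand. They lie at chr1:173420354-173420653 (plus strand), chr7:101011949-101012248 (minus strand) and chr7:27499074-27499373 (plus strand).
Aim2 promoter: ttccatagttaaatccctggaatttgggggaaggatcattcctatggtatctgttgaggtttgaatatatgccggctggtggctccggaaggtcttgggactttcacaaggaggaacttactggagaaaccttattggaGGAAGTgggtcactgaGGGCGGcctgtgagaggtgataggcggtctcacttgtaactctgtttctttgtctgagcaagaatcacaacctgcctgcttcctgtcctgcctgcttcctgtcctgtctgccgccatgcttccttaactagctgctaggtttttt
P2ry2 promoter: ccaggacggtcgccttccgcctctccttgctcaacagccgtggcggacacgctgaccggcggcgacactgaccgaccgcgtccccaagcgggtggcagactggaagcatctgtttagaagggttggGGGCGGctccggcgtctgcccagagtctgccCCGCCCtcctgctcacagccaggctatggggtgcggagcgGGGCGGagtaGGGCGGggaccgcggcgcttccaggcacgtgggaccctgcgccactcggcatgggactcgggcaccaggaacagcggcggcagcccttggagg
Prx promoter: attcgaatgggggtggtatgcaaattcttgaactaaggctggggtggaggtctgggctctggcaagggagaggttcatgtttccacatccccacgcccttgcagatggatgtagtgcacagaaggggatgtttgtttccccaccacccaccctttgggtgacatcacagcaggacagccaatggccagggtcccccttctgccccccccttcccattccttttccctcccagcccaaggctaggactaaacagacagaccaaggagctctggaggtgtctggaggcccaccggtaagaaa
The Prx window holds none of the 5 motifs, the Aim2 window holds 1 of each of the marked kinds and the P2ry2 window 4 of GGGCGG. These matches describe letters in this window and say nothing of what binds there.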

How the data were processed

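RNA from sorted, zsGreen-positive LSK cells and CMPs was sequenced as SMART-Seq v4 libraries, 19 in all. The deposited counts are whole reads per gene symbol: the authors aligned with STAR (mm10), dropped duplicates by Picard, which can lower the counts of abundant genes, and counted by HTSeq on GENCODE annotation at default, strand-specific settings. As the kit does not mark strand, such counting leaves out reads of the other strand, and reads that named no gene made up 51.9% to 53.8% of the reads given to genes, to none or to several; they were left out. The authors' table of size-factor-scaled values was not used.

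Groups came from the labels. edgeR 4.0.16 (R 4.3.3) was run on all 19 libraries as 6 groups, with TMM scaling, filterByExpr (minimum count 10, minimum total 15), glmQLFit and glmQLFTest, and Benjamini-Hochberg adjustment over 15066 genes at 0.05. CPM use TMM-scaled library sizes, and SD are over libraries. Genes called near 0 reads rest on few counts, and the intervals and floors cover counting error only, at 3 reads for a count of 0. The scripts were tested on simulated data. DESeq2 1.42.0, other scalings, no filter, library totals as a covariate, the replicate letter as a block, pooled shRNAs, single cell types and leaving out each library were the alternatives. The 8 genes and all lists were chosen with earlier results of these data known. Named genes were the 8, those just outside the threshold, the 5 closest profiles, up to 3 called partners per list, and the neighbours, with Lrpap1, Cdc14b, the single marker genes and 6 partners that differed between the control cell types added after their values were seen. Gene positions are from GENCODE vM21, by symbol, and promoters from RefSeq (GRCm38.p6). Mnda and Pyhin1 of the Aim2 list are not listed in the files.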

Additional observations from a re-analysis of the deposited data

Results flagged for a closer look

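By a test of the difference itself, the 8 genes differed in knockdown effect between cell types, which is how they were chosen: the log2 differences, CMP minus LSK, were -2.12 for Aim2, -2.53 for Bambi, -3.72 for Ccm2l, -4.88 for Chad, -1.90 for P2ry2, -4.59 for Prrt1, -2.41 for Prx and -2.38 for Vldlr. That of Chad is a fitted value without a lower limit, because of its 0 reads with sh20 in CMPs. Among the pathway partners Smad6 differed in its sh20 effect between the cell types (log2 difference -3.88, edgeR, Benjamini-Hochberg adjusted over all genes tested). In groups of 4, 2 Renilla libraries stood far from the other 3 for a member gene: CMP Renilla replicate B for Aim2, at 22.4 CPM against 16.2 CPM in the nearest library, and LSK Renilla replicate B for Ccm2l, at 40.0 CPM against 19.2 CPM. Chance flags about 1 in 20 such groups, and 16 were looked at.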

How the results depend on the processing

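The low CMP sh20 level of the 8 genes kept its direction under all 7 other settings and all 19 fits without 1 library, but its size moved. Since the rule used these libraries, nothing is read from that direction. Leaving out 1 CMP sh20 library took Bambi (-4.38) to -5.85 or -3.74, Aim2 (-3.71) to -4.61 or -3.24 and Ccm2l (-3.08) to -3.55 or -2.78. Prrt1 (-5.24) went to -4.43 without replicate B, and without replicate C no sh20 read is left. Library totals as a covariate moved all but Chad by more than the SD of log2 CPM over the Renilla CMP libraries. For Bambi and Ccm2l the move was smaller than the SE of the fit. Of the genes moved, P2ry2 was least low at -3.34 and Vldlr lowest at -5.14. The call of the 8 genes in the difference between cell types did not always hold. It held for 8 of 8 with DESeq2 size factors, upper quartile scaling, no filter, DESeq2 and library totals as a covariate. With both shRNAs pooled 1 (Ccm2l) was called, and with the replicate block 0. Leaving out 1 library gave 0 to 8, the lowest being 0 and 1 (Chad), without replicates A and D of the Renilla LSK cells. The number of genes called in that difference, 8, was 253 without the filter, 98 with DESeq2, 1 with the shRNAs pooled, 0 with the replicate block and 0 to 263 with 1 library left out, the highest without CMP sh20 replicate C. It was 28 without CMP sh20 replicate B, 13 and 17 without LSK sh20 replicates A and B, 4 without CMP sh10 replicate C or LSK Renilla replicate C, and 5 without CMP Renilla replicate B.

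For sh20 in CMPs, 609 calls became 1004 without the filter, 1178 with DESeq2, 168 with the replicate block, 20 with library totals as a covariate and 153 (without CMP Renilla replicate B) to 1624 (without CMP sh20 replicate C) with 1 library left out. For sh10 in CMPs, 145 became 585, 453, 50 and 1 under those settings, 272 within CMPs alone and 11 to 455 with 1 library left out, the lowest without CMP sh10 replicate B and the highest without LSK sh10 replicate B. For sh20 against sh10 in LSK cells, 28 became 280 without the filter, 196 with DESeq2, 15 with totals as a covariate, 0 within LSK cells alone and 4 to 43 with 1 library left out, the lowest without LSK sh20 replicate C. Renilla CMPs against Renilla LSK cells gave 2979 calls, 2113 to 4021 with 1 library left out. Library totals differ between the groups, so that covariate and the shRNA cannot be told apart fully; the cause of these changes was not tested. With library totals as a covariate none of the partner calls with either shRNA in CMPs held. With upper quartile scaling 60.9% of the LSK sh20 against sh10 calls were lower, against 50%.

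The labels do not say that a replicate letter marks a shared mouse, and the letters were not taken as pairs: same-letter libraries of different groups correlated from -0.08 to 0.04 within a cell type, and those of the same shRNA in CMPs and LSK cells from -0.000694 to 0.21, with 2 of 9 over 0.1. The replicate block joined all libraries of a letter, across shRNAs and cell types. A mouse shared by the CMP and LSK libraries of 1 shRNA was therefore not modelled. For sh20 against sh10 in LSK cells the value of Chad, -0.02, turned to 0.0459 with the replicate block and from -0.32 to 0.22 with 1 library left out. Of the partners, Lrpap1, P2rx7 and Stk24 lost their sh20 call in 15, 16 and 14 of the 19 fits without 1 library, and Smad6 in 0, with a log2 fold change from -4.72 to -3.87, though its adjusted p was 0.0534 with library totals as a covariate. A CMP sh20 group of 1 library is assumed to vary like the other groups. With 0 to 15 reads per gene over both CMP sh20 libraries, ratios there are imprecise.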
